A study of Homo sapiens with 4 samples.

Results

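The genes of DNA replication and mitosis were taken as a list of 42 symbols, 23 that act in S phase and 19 that act in mitosis, out of 21865 symbols in the deposited tables. The list was drawn up with earlier results of these data known. Its rows were taken by symbol, and all 42 were found once in each table. RNA was sequenced from 4 cultured lines of human acute myeloid leukemia, with 1 library per line. THP-1 and MonoMac-1, both monocytic, are known to harbour an MLL-AF9 fusion gene. HL60 resembles promyelocytes and KG1a early CD34-positive cells; the fusion status is general knowledge of the lines and is not in the labels. All 4 lines were grown in RPMI/Opti-Media with fetal bovine serum, and no treatment is named. The title of the THP-1 sample ends in an unexplained "tr", so whether that culture was treated is not known. The labels do not say whether any culture was synchronised.

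A cell copies its DNA once per division. In G1 the MCM2 to MCM7 helicase is loaded onto replication origins by CDC6 and CDT1, and in S phase CDC45 and the GINS complex turn it into the moving helicase that polymerases follow. In mitosis cyclin B with its kinase, the Aurora and Polo kinases and the spindle motors separate the copies, and CDC20 then directs the destruction of cyclins. S phase genes are largely switched on by E2F factors late in G1. Many mitosis genes come on later, through promoters with a short element called the CHR (cell cycle genes homology region) and boxes bound by NF-Y, so both groups are commonly read as markers of dividing cells.

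These elements can be seen in the promoters. The RefSeq table (GRCh38.p14) held a promoter, from 250 bases before the start site to 50 after it, for 35 of the 42 members, and 5 of those had more than 1 promoter. MCM4, MCM5, CCNE2, AURKA, TTK, TPX2 and BIRC5 were not in it. The E2F core was searched as TTCCCGC and its variant forms TTGGCGC, then TTCGCGC, and lastly TTGCCGC. The CHR was searched as TTTGAA and also as TTTAAA, and the NF-Y box as CCAAT. Each word was searched on both strands. The 120 bases before the start are shown for 5 S phase genes, TYMS, PCNA and PRIM1 as genes that differed at least 2-fold between lines and CDT1 and E2F1 for their roles in origin loading and E2F control, with the E2F core in capitals on either strand, 5′ to 3′ along the gene. Their places are TYMS chr18:657533-657652 (plus strand), PCNA chr20:5126623-5126742 (minus strand), PRIM1 chr12:56752324-56752443 (minus strand), CDT1 chr16:88803669-88803788 (plus strand) and E2F1 chr20:33686386-33686505 (minus strand).

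TYMS: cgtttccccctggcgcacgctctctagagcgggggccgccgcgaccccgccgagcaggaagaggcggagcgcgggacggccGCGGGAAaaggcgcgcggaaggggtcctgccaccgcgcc
PCNA: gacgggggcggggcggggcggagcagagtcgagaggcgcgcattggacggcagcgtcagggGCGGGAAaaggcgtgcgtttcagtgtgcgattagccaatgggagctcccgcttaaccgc
PRIM1: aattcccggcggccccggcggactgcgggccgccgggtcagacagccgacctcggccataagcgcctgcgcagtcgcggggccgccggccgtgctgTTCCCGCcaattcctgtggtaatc
CDT1: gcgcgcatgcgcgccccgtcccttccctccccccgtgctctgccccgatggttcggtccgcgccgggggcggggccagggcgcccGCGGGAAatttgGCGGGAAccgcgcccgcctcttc
E2F1: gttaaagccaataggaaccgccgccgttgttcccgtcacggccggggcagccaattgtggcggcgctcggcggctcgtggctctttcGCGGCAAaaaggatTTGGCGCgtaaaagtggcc

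The next set shows the same 120 bases for mitosis genes that carry the results below, with the CHR and the NF-Y boxes in capitals. RRM2, an S phase gene, is added because a listed promoter of it held this arrangement, with TTTAAA as the CHR word. Another listed promoter of RRM2 held an E2F core and no CHR. The places are CCNB1 chr5:69167030-69167149 (plus strand), CCNB2 chr15:59105026-59105145 (plus strand), CDC20 chr1:43358861-43358980 (plus strand), PLK1 chr16:23678769-23678888 (plus strand), KIF11 chr10:92593010-92593129 (plus strand), MKI67 chr10:128126424-128126543 (minus strand) and RRM2 chr2:10122619-10122738 (plus strand).

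CCNB1: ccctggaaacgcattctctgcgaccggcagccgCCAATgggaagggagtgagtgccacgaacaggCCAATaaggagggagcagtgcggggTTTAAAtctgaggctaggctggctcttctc
CCNB2: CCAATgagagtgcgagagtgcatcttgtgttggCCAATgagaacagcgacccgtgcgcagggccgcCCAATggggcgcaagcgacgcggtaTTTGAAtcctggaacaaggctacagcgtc
CDC20: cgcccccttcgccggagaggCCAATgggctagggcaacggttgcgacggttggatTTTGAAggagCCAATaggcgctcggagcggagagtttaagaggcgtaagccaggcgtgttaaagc
PLK1: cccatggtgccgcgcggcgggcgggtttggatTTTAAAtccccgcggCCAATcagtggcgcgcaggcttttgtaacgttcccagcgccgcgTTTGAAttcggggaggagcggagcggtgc
KIF11: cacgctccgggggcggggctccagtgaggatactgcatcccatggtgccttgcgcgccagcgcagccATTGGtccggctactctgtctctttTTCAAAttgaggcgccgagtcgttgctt
MKI67: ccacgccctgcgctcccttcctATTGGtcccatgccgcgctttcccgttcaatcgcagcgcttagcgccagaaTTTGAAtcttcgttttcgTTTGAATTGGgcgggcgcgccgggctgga
RRM2: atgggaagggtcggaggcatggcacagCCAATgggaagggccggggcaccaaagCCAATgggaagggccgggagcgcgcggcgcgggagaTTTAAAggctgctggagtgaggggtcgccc

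An E2F core was found in 17 of 20 S phase genes with a promoter (85%) and in 2 of 15 mitosis genes (13.3%), beside 15.3% of the 27305 genes of the table and 25.0% of the 8925 measured genes in it. The CHR was found the other way round, in 12 of 15 mitosis genes (80%) and 2 of 20 S phase genes (10%), beside 27.9% of all genes and 21.8% of measured genes. Within the 100 bases before the start, it stood in 10 of 15 mitosis genes (66.7%) and in 10.1% of all genes (7.25% of measured genes). An NF-Y box was found in 13 of 15 mitosis genes and in 13 of 20 S phase genes, beside 39.7% of all genes and 43.6% of measured genes. In 2 member promoters the E2F core and the NF-Y box touched or shared bases. The words are short, a match is not a binding site, and a gene with several listed promoters has more chances of one.

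**Figure D1:**
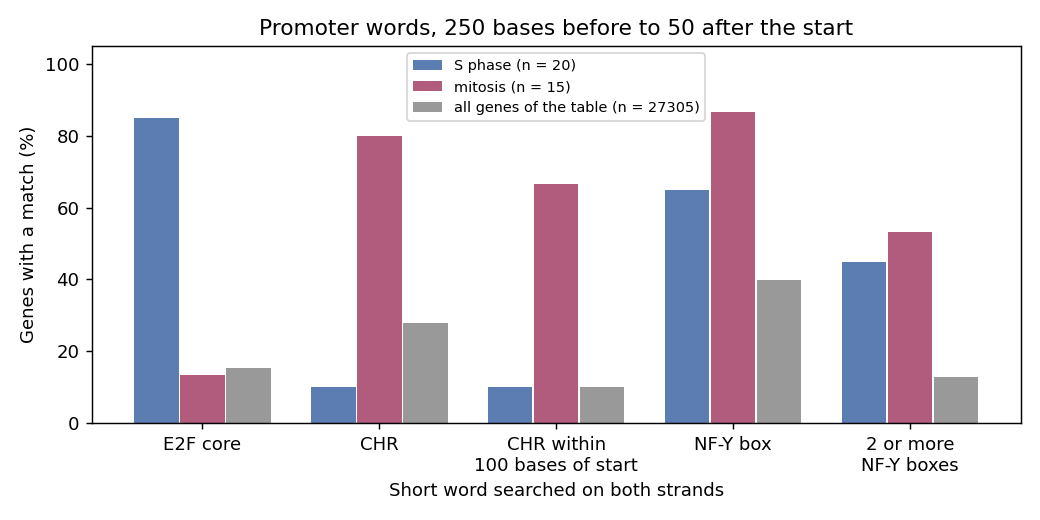
Share of genes (percent) with each short word in the RefSeq promoter, for S phase members (n = 20), mitosis members (n = 15) and all genes of the table (n = 27305). The E2F core stands at 85% of S phase genes and 13.3% of mitosis genes, and the CHR at 80% of mitosis genes and 10% of S phase genes.

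Both gene groups were abundant in all 4 lines. Levels are RPKM, the deposited abundance per kilobase of gene, scaled to the library total, and all 42 members stood at 1 RPKM or more in every line. They ran from 5.28 RPKM (CCNE2 in HL60) to 403 RPKM (TYMS in HL60). The median S phase gene lay at percentile 85.6 (THP-1), 82.3 (MonoMac-1), 91.7 (HL60) and 85.7 (KG1a) among the 12976 measured genes. The median mitosis gene lay at percentile 86.3 (THP-1), 80.0 (MonoMac-1), 83.6 (HL60) and 89.0 (KG1a). A gene was called measured at 1 RPKM or more in at least 1 line.

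Fewer members than genes in general had a wide range over the lines. From the lowest to the highest line, 15 of 42 members (35.7%) spanned at least 2-fold on the scale of RPKM + 1. The share was 61.1% of all measured genes and 45.0% of the 6277 genes with at least 5 RPKM in every line, a set that holds all members. PLK1, the Polo kinase that starts mitosis, was the most even: it stood at 71.3 (THP-1) and 82.6 RPKM (MonoMac-1), against 71.8 (HL60) and 79.9 RPKM (KG1a). CCNA2, the cyclin of S phase and early mitosis, stood at 56.6 (THP-1) and 64.9 RPKM (MonoMac-1), against 64.1 (HL60) and 67.6 RPKM (KG1a). AURKA, the Aurora kinase of the spindle poles, stood at 39.2 (THP-1) and 31.0 RPKM (MonoMac-1), against 31.4 (HL60) and 31.2 RPKM (KG1a). In each of these 3 genes the highest line was less than 1.5-fold above the lowest.

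The libraries differ in ways that matter for these values. Bases assigned to genes came to between 6.04 (THP-1) and 13.6 gigabases (MonoMac-1), and each member value rested on at least 631 fragment equivalents of 200 bases. The 95% counting intervals (exact Poisson) reached at most 8.12% above a value, so counting error was small beside the larger differences between lines; they do not cover the spread between cultures, which was not measured. Among lineage markers, monocytic IRF8 stood at 231 (THP-1) and 163 RPKM (MonoMac-1), against 0.599 (HL60) and 0.0216 RPKM (KG1a), and CD34 was highest in KG1a at 494 RPKM. All 5 monocyte markers were higher in THP-1 and in MonoMac-1 than in HL60 or KG1a, but not all were abundant. CD14 stood at 1.28 (THP-1) and 4.13 RPKM (MonoMac-1), and CSF1R at 31.1 (THP-1) and 2.31 RPKM (MonoMac-1). Of 4 granulocyte precursor markers MPO was highest in HL60 at 4610.2 RPKM, whereas PRTN3, AZU1 and ELANE lay above their HL60 level in THP-1 and in MonoMac-1; ELANE stood at 1042 (THP-1) and 1313 RPKM (MonoMac-1), against 76.6 (HL60) and 0.0355 RPKM (KG1a). Of 10 epithelial, stromal and endothelial markers 3 were measured, led by PECAM1, which monocytic cells also express. CD34 in HL60 lay at 12.9 RPKM. Genes typical of KG1a were those of at least 20 RPKM there and under 0.5 RPKM in THP-1 and MonoMac-1. Of 63 such genes, 59 lay in HL60 above 0 and under 10% of their KG1a level. The median share of these 59 was 2.67%, which that ceiling keeps low by choice of genes. Among the members such a share would make up 15.3% of the HL60 value of CCNE2, 6.87% of that of CCNB1 and less of all others. PCNA, CCNB1, AURKA and RRM2 have processed pseudogenes or near copies, POLA1 and BUB1B overlap other genes (SCARNA23 and PAK6) in the deposited coordinates, and how such reads were assigned is not known. In bulk RNA, more cells in a phase and more RNA of a gene per cell cannot be told apart.

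Gene length moved with the line. Among genes of at least 5 RPKM in every line, the 219 longer than 8000 bases had a median difference from the 4-line mean of 0.05 (THP-1), -0.17 (MonoMac-1), -0.02 (HL60) and 0.11 (KG1a) on the log2 scale. The 592 of up to 1000 bases had medians of -0.10 (THP-1), 0.18 (MonoMac-1), 0.08 (HL60) and -0.16 (KG1a). MKI67 (12495 bases), CENPF (10296) and CENPE (8612) are among the longest members, and TYMS (1012) and PCNA (1058) among the shortest. With this trend taken off each library, HL60 was highest for 14 S phase genes and KG1a for 12 mitosis genes, and MKI67 differed by -1.45 between the pairs of lines described below.

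**Figure D2:**
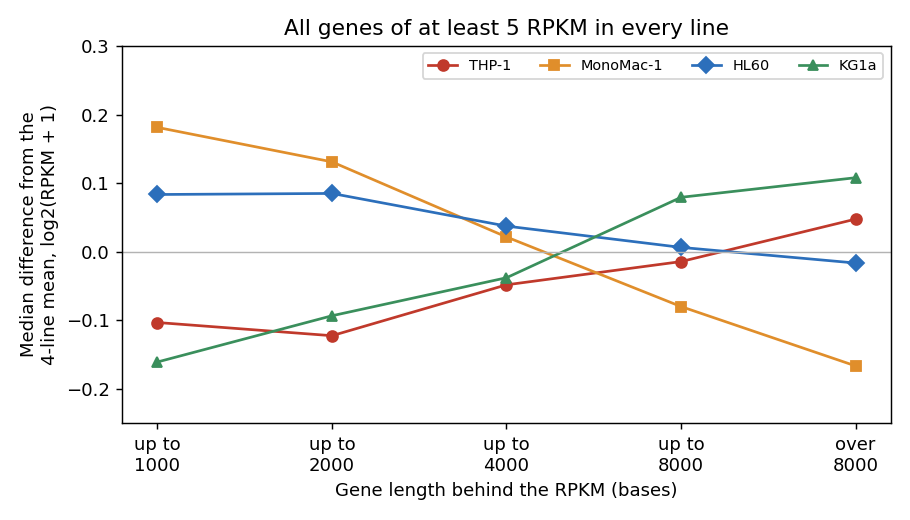
Median difference of each line from the mean of the 4 lines on the log2(RPKM + 1) scale, by the gene length behind the RPKM, over all genes of at least 5 RPKM in every line. MonoMac-1 runs from 0.18 for the shortest genes to -0.17 for the longest, and KG1a from -0.16 to 0.11.

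In the deposited RPKM, S phase genes were most often highest in HL60 and mitosis genes in KG1a; with RPKM rescaled by its library sum, HL60 was highest for 10 S phase genes and KG1a for 12. Of the 23 S phase genes 13 (56.5%) had their highest value in HL60, where 23.1% of all measured genes did. Of the 19 mitosis genes 11 (57.9%) had theirs in KG1a, where 31.0% of all measured genes did. Only 2 mitosis genes were highest in HL60, and 8 S phase genes (34.8%) were highest in KG1a. MonoMac-1 held the lowest value of 10 S phase and 9 mitosis genes (43.5% and 47.4%, beside 19.4% of all measured genes). THP-1 was highest for 1 S phase gene and 4 mitosis genes, beside 21.0% of all measured genes, and MonoMac-1 for 1 and 2 (24.9%). At the low end THP-1 held 6 S phase and 4 mitosis genes (23.4% of all measured genes), HL60 held 3 and 5 (26.2%), and KG1a held 4 and 1 (29.7%). With 1 library per line these counts have no test.

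Fewer genes stood at least 1.5-fold beyond the next line on the scale of RPKM + 1. In THP-1 CDC20 was high in this sense (6.78% of all measured genes were) and PCNA low (4.82%). In MonoMac-1 MKI67 was low (3.06%) and 0 members were high (7.41%). In HL60 5 S phase genes were high (MCM7, CDT1, CDC45, PRIM1 and TYMS; 21.7% of the 23, beside 6.2% of all measured genes), and CCNE2 and CCNB1 were low (8.22%). In KG1a MCM10, KIF11, BIRC5 and MKI67 were high (14.0%), and MCM7 and PRIM1 were low (10.3%).

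**Figure D3:**
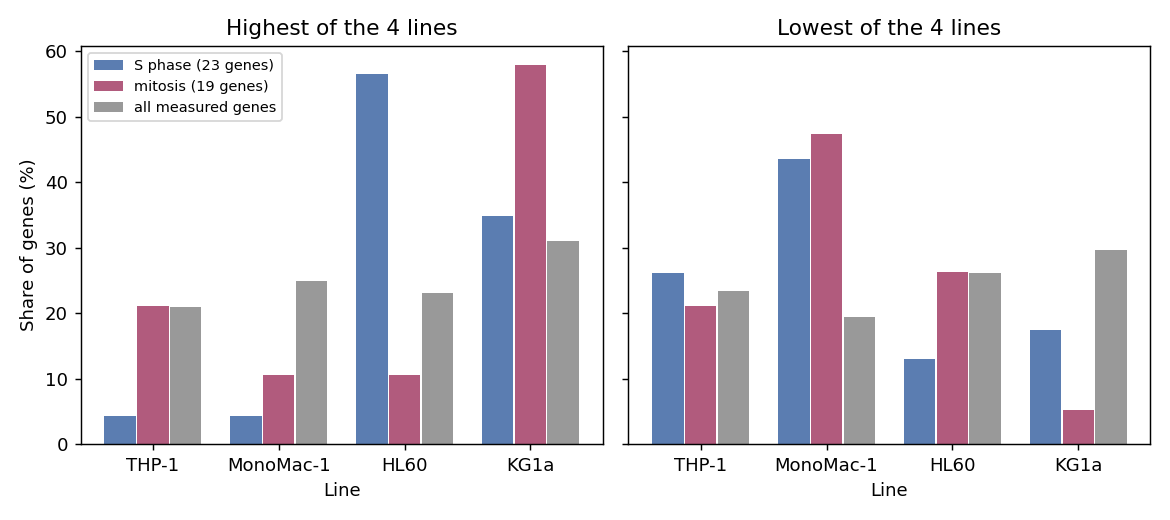
Share of genes (percent) whose highest (left) or lowest (right) value of the 4 lines lies in each line, for 23 S phase genes, 19 mitosis genes and all measured genes. In the deposited RPKM HL60 is highest for 56.5% of S phase genes (10 genes, against 12 for KG1a, with RPKM over its library sum), KG1a for 57.9% of mitosis genes, and MonoMac-1 is lowest for 43.5% and 47.4% of the groups.

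Within a library, the balance between the groups differed. The median of log2(RPKM + 1) over S phase genes minus that over mitosis genes was -0.07 (THP-1), 0.16 (MonoMac-1), 0.85 (HL60) and -0.29 (KG1a). Rescaling a whole library moves both medians alike, apart from the added 1. HL60 stood apart as the line with S phase genes well above mitosis genes, and in KG1a and slightly in THP-1 the order was turned. With the length trend taken off, the values were 0.86 (HL60), -0.17 (KG1a) and -0.04 (THP-1). Differences of single genes from their 4-line mean were smaller, with a median in HL60 of 0.27 for S phase and -0.11 for mitosis genes.

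The helicase subunits MCM2 to MCM7, which form a ring with 1 copy of each, were among the most abundant members. They lay at 88.2 to 181 RPKM (THP-1) and 71.8 to 142 RPKM (MonoMac-1), and at 97.6 to 232 RPKM (HL60) and 69.5 to 214 RPKM (KG1a). Per kilobase, the highest subunit was thus 2.05 (THP-1), 1.97 (MonoMac-1), 2.37 (HL60) and 3.07 times (KG1a) the lowest. The subunits at the ends of that range changed places between HL60 and KG1a. MCM7 stood at 149.9 (THP-1) and 142 RPKM (MonoMac-1), against 232 (HL60) and 69.5 RPKM (KG1a). MCM4 showed the reverse, at 168 (THP-1) and 131 RPKM (MonoMac-1), against 97.6 (HL60) and 214 RPKM (KG1a). MCM7 (chromosome 7, 99690404 to 99699427, hg19) was the highest subunit in HL60 and the lowest in KG1a, and hosts the microRNA genes MIR25, MIR93 and MIR106B in the deposited coordinates.

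The other subunits were closer together. MCM2 stood at 115 (THP-1) and 121 RPKM (MonoMac-1), against 157 (HL60) and 135 RPKM (KG1a). MCM5 stood at 111 (THP-1) and 123 RPKM (MonoMac-1), against 169 (HL60) and 134 RPKM (KG1a). MCM3 stood at 181 (THP-1) and 121 RPKM (MonoMac-1), against 170.1 (HL60) and 193 RPKM (KG1a). Both MLL-AF9 lines lay under both other lines for MCM2 and MCM5, and did not for MCM3. MCM6 stood at 88.2 (THP-1) and 71.8 RPKM (MonoMac-1), against 109 (HL60) and 77.1 RPKM (KG1a) and was the lowest subunit in both MLL-AF9 lines.

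**Figure D4:**
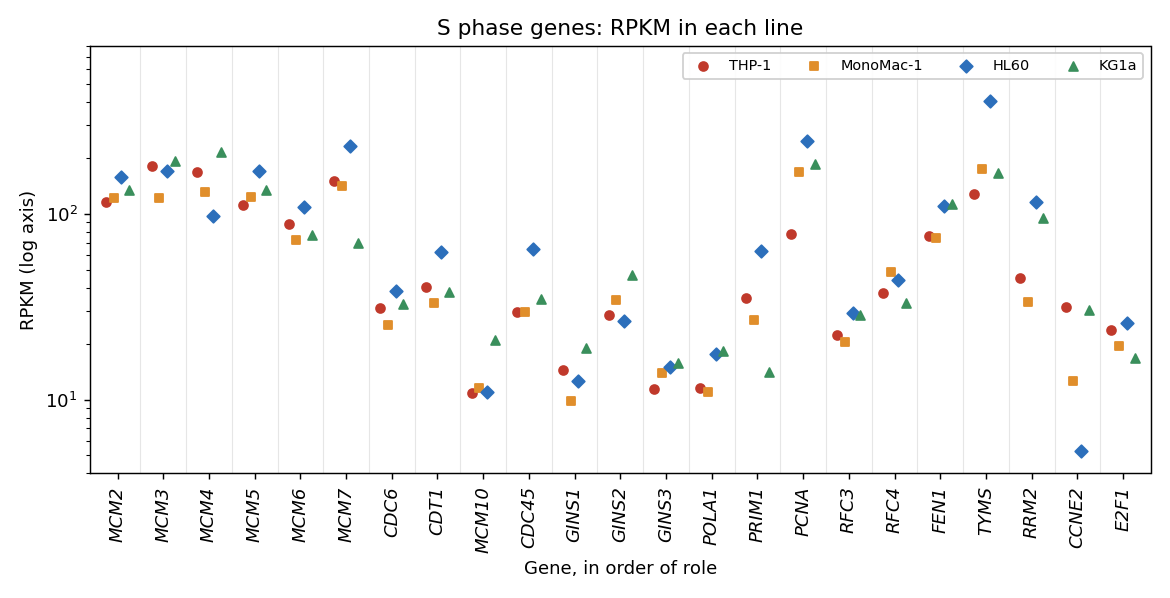
RPKM (log axis) of the 23 S phase genes in each line, 1 point per library, ordered by role from the helicase to the G1/S regulators. HL60 is the highest point for 13 genes, among them TYMS at 403, and the lowest for CCNE2 at 5.28.

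The factors that load and activate the helicase were less abundant than the helicase itself. CDC6, the loading ATPase, stood at 31.3 (THP-1) and 25.1 RPKM (MonoMac-1), against 38.4 (HL60) and 32.8 RPKM (KG1a). CDT1, its partner in loading, stood at 40.3 (THP-1) and 33.1 RPKM (MonoMac-1), against 62.1 (HL60) and 37.8 RPKM (KG1a). CDC45, which joins the helicase when it starts to move, stood at 29.7 (THP-1) and 29.5 RPKM (MonoMac-1), against 64.9 (HL60) and 34.7 RPKM (KG1a), so HL60 was 1.87 times the next line. All 3 were highest in HL60 and lowest in MonoMac-1.

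MCM10 and the listed subunits GINS1, GINS2 and GINS3 were highest in KG1a instead, GINS3 by only 1.06 times the HL60 value. MCM10, a factor that starts DNA unwinding, stood at 10.9 (THP-1) and 11.6 RPKM (MonoMac-1), against 11.0 (HL60) and 21.0 RPKM (KG1a). GINS2 stood at 28.5 (THP-1) and 34.5 RPKM (MonoMac-1), against 26.6 (HL60) and 46.9 RPKM (KG1a). GINS1 stood at 14.4 (THP-1) and 9.84 RPKM (MonoMac-1), against 12.6 (HL60) and 19.04 RPKM (KG1a), and GINS3 at 11.5 (THP-1) and 14.0 RPKM (MonoMac-1), against 14.9 (HL60) and 15.8 RPKM (KG1a). GINS2 was the most abundant of the 3 in every line, by 2.11 (HL60) to 3.50 times (MonoMac-1) over the lowest.

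Among the enzymes of DNA synthesis, PRIM1 differed most between HL60 and KG1a. PRIM1, the catalytic primase subunit that makes the starting primers (chromosome 12, 57125364 to 57146146, hg19), stood at 35.2 (THP-1) and 26.7 RPKM (MonoMac-1), against 63.1 (HL60) and 14.1 RPKM (KG1a). Its highest value was 4.46 times its lowest. POLA1, the polymerase that works with PRIM1 in 1 complex, did not share this pattern: it stood at 11.5 (THP-1) and 11.0 RPKM (MonoMac-1), against 17.7 (HL60) and 18.3 RPKM (KG1a). Primase was therefore above the polymerase per kilobase in 3 lines, and under it in KG1a.

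PCNA, the sliding clamp, was low in THP-1. It stood at 77.6 (THP-1) and 169 RPKM (MonoMac-1), against 247 (HL60) and 185 RPKM (KG1a). FEN1, the nuclease that processes Okazaki fragments, stood at 76.1 (THP-1) and 73.9 RPKM (MonoMac-1), against 110.1 (HL60) and 112 RPKM (KG1a). The clamp loader subunit RFC3 stood at 22.1 (THP-1) and 20.5 RPKM (MonoMac-1), against 29.1 (HL60) and 28.7 RPKM (KG1a), and RFC4 at 37.3 (THP-1) and 48.3 RPKM (MonoMac-1), against 43.8 (HL60) and 33.0 RPKM (KG1a). RFC4 was the 1 S phase gene with its highest value in MonoMac-1.

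Nucleotide supply was highest in HL60. TYMS, which makes thymidylate, stood at 128 (THP-1) and 174 RPKM (MonoMac-1), against 403 (HL60) and 167 RPKM (KG1a), so HL60 was 2.32 times the next line. TYMS overlaps ENOSF1 over 3176 bases of the deposited coordinates, and ENOSF1 was also highest in HL60, at 9.84 (THP-1) and 12.4 RPKM (MonoMac-1), against 21.2 (HL60) and 9.81 RPKM (KG1a); reads of the overlap may be shared. RRM2, the regulatory subunit of ribonucleotide reductase (chromosome 2, 10262695 to 10271546, hg19), stood at 45.0 (THP-1) and 33.6 RPKM (MonoMac-1), against 115 (HL60) and 94.9 RPKM (KG1a). RRM2 was thus low in both MLL-AF9 lines, without overlap.

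The G1/S regulators differed from each other, with CCNE2 lowest in HL60 and E2F1 highest there. CCNE2, a cyclin that starts S phase (chromosome 8, 95892722 to 95907482, hg19), stood at 31.6 (THP-1) and 12.6 RPKM (MonoMac-1), against 5.28 (HL60) and 30.3 RPKM (KG1a). The HL60 value had a 95% counting interval of 4.87 to 5.70 RPKM. CCNE2 was lowest in the line where most S phase genes were highest. E2F1, which drives many S phase promoters, stood at 23.8 (THP-1) and 19.5 RPKM (MonoMac-1), against 25.8 (HL60) and 16.8 RPKM (KG1a).

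Among the mitosis genes CDC20 stood out in THP-1. CDC20, the activator of the anaphase-promoting complex (chromosome 1, 43824626 to 43828873, hg19), stood at 384 (THP-1) and 90.5 RPKM (MonoMac-1), against 99.4 (HL60) and 98.3 RPKM (KG1a). The THP-1 value had a 95% counting interval of 379 to 389 RPKM. THP-1 was thus 3.86 times the next line, and the other 3 lines lay close together. CCNB1, the main mitotic cyclin and a target of that complex, was low in HL60 instead: it stood at 76.4 (THP-1) and 84.4 RPKM (MonoMac-1), against 30.3 (HL60) and 77.9 RPKM (KG1a). CCNB2, the second B cyclin, did not share the low HL60 value, at 53.6 (THP-1) and 56.6 RPKM (MonoMac-1), against 59.0 (HL60) and 86.9 RPKM (KG1a).

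The mitotic kinases had no common order of lines. AURKB, the Aurora kinase of the chromosomes, stood at 14.7 (THP-1) and 21.8 RPKM (MonoMac-1), against 34.7 (HL60) and 25.8 RPKM (KG1a). BUB1, a checkpoint kinase at the kinetochore, stood at 46.8 (THP-1) and 56.7 RPKM (MonoMac-1), against 40.5 (HL60) and 63.5 RPKM (KG1a). BUB1B, the BUBR1 subunit of the same checkpoint, ran the other way, at 34.3 (THP-1) and 29.9 RPKM (MonoMac-1), against 36.9 (HL60) and 22.7 RPKM (KG1a). TTK, the kinase that triggers the checkpoint, stood at 31.3 (THP-1) and 20.4 RPKM (MonoMac-1), against 16.1 (HL60) and 25.7 RPKM (KG1a). AURKB and BUB1B were the mitosis genes with their highest value in HL60.

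**Figure D5:**
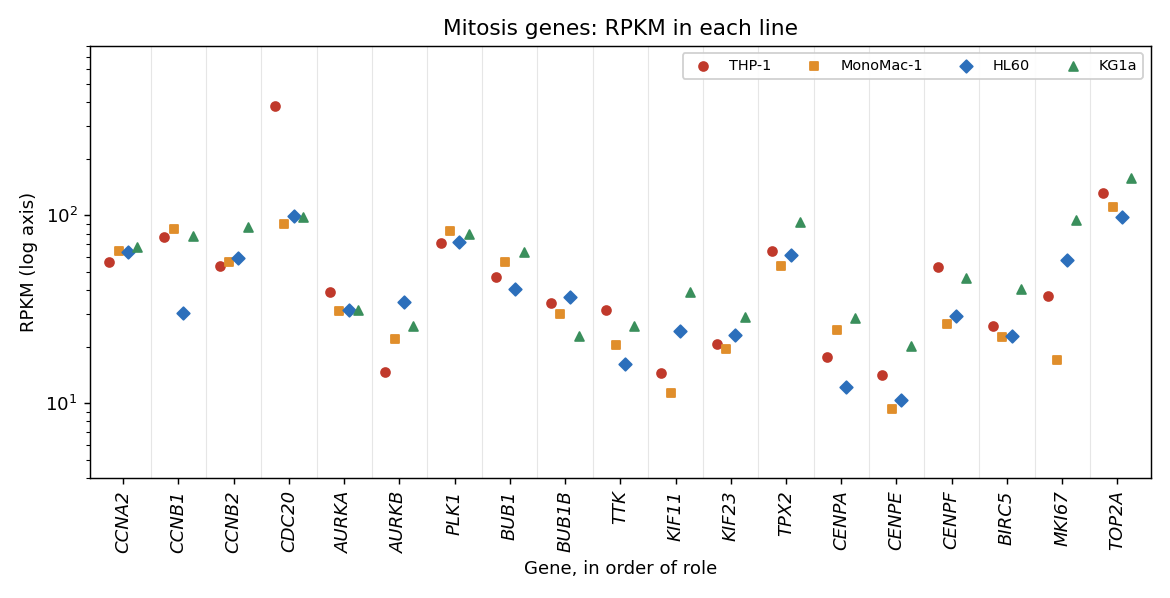
RPKM (log axis) of the 19 mitosis genes in each line, 1 point per library, ordered by role. CDC20 stands at 384 in THP-1 and at 90.5 to 99.4 in the other lines, CCNB1 is low in HL60 at 30.3, and KG1a is the highest point for 11 genes.

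Spindle and chromosome genes were mostly highest in KG1a. KIF11, the motor that pushes the spindle poles apart (chromosome 10, 94352825 to 94415152, hg19), stood at 14.5 (THP-1) and 11.3 RPKM (MonoMac-1), against 24.3 (HL60) and 39.0 RPKM (KG1a). TPX2, which activates AURKA on the spindle, stood at 65.0 (THP-1) and 53.6 RPKM (MonoMac-1), against 61.8 (HL60) and 92.4 RPKM (KG1a), and KIF23, a motor of cell division, at 20.6 (THP-1) and 19.4 RPKM (MonoMac-1), against 23.1 (HL60) and 28.6 RPKM (KG1a). MKI67, which encodes the proliferation antigen Ki-67 (chromosome 10, 129894925 to 129924468, hg19), had the widest range on the log2(RPKM + 1) scale, while CCNE2 spanned more in RPKM, at 5.98-fold. MKI67 stood at 37.1 (THP-1) and 16.9 RPKM (MonoMac-1), against 57.8 (HL60) and 94.8 RPKM (KG1a), a spread of 5.62-fold in RPKM. TOP2A, the topoisomerase that untangles chromosomes, spanned much less, at 131 (THP-1) and 110.3 RPKM (MonoMac-1), against 98.0 (HL60) and 159 RPKM (KG1a).

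The centromere genes followed KG1a too, apart from CENPF. CENPA, the histone variant of the centromere, stood at 17.5 (THP-1) and 24.6 RPKM (MonoMac-1), against 12.2 (HL60) and 28.3 RPKM (KG1a). CENPE, a kinetochore motor, stood at 14.1 (THP-1) and 9.35 RPKM (MonoMac-1), against 10.4 (HL60) and 20.02 RPKM (KG1a). CENPF, a large kinetochore protein, stood at 53.2 (THP-1) and 26.5 RPKM (MonoMac-1), against 28.9 (HL60) and 46.6 RPKM (KG1a). BIRC5, which encodes survivin, stood at 25.9 (THP-1) and 22.5 RPKM (MonoMac-1), against 22.7 (HL60) and 40.7 RPKM (KG1a). The 600 bases listed as EPR1 lie inside BIRC5 and stood at 62.7 (THP-1) and 59.4 RPKM (MonoMac-1), against 36.0 (HL60) and 68.9 RPKM (KG1a), so the split of reads between the 2 entries is uncertain.

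The MLL-AF9 lines were then set against the other lines, since the series title names leukemias with this fusion. Of the S phase genes, 10 of 23 lay lower in THP-1 and in MonoMac-1 than in either HL60 or KG1a (19.6% of all measured genes did), and 0 lay above both (22.1% of all did). The 10 were MCM2, MCM5, CDC6, CDC45, GINS3, POLA1, PCNA, RFC3, FEN1 and RRM2. Of the mitosis genes 5 of 19 were lower in this way, a share of 26.3% beside the same 19.6%, and 0 were higher. They were CCNB2, AURKB, KIF11, KIF23 and MKI67. With a gap of at least 1.5-fold between the pairs, RRM2, KIF11 and MKI67 remained lower and 0 members were higher (4.13% and 7.85% of all measured genes).

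Over the list, the median difference between pair means was -0.33 for S phase genes and -0.05 for mitosis genes on the log2(RPKM + 1) scale, beside 0.02 for all measured genes. In limma, which took the line as the unit with 2 residual degrees of freedom, 0 of 42 members passed an adjusted p of 0.05, as did 0 of all 12976 genes (0.0% called). At an unadjusted p under 0.05 there were 3 members, all lower: RRM2 (-1.40 ± 0.35 on the log2 scale, SE; limma adjusted p = 0.421), KIF11 (-1.20 ± 0.40; adjusted p = 0.530) and MKI67 (-1.52 ± 0.52; adjusted p = 0.533). Over all genes 2.64% were lower and 5.91% higher at that level. An exact permutation test of 2 lines against 2 cannot go below p = 0.333 (two-sided).

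The differences upward depended on single lines. CDC20 differed by 0.91 ± 0.74 (SE; limma adjusted p = 0.759), and by -0.13 without THP-1. CCNB1 differed by 0.71 ± 0.53, and by 0.04 without HL60. CCNE2 differed by 0.59 ± 0.90, by -0.57 without HL60 and by -0.040 without THP-1. TTK, MCM7 and RFC4 differed by 0.30, 0.20 and 0.16 and turned direction without HL60 (TTK), without KG1a (MCM7), and without either MonoMac-1 or KG1a (RFC4). On the lower side PCNA (-0.90 ± 0.51), TYMS (-0.79 ± 0.55) and AURKB (-0.71 ± 0.39) kept their direction whichever line was left out, and none of them passed. Their size depended on single lines too: PCNA differed by -0.34 without THP-1 and by -1.45 without MonoMac-1, TYMS by -0.16 without HL60 and by -1.43 without KG1a, and AURKB by -0.44 without THP-1 and by -0.98 without MonoMac-1.

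The mitosis median depended on which other line was used. Without KG1a the MLL-AF9 lines were 0.10 above HL60, and without HL60 they were 0.40 below KG1a, a difference of -0.40. The S phase median stayed between -0.44 and -0.30 when each line was left out in turn.

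Set against KG1a, HL60 was lower in most mitosis genes. Of the 19, 10 were at least 1.5-fold lower in HL60 than in KG1a (27.8% of all measured genes were) and 1, BUB1B, was at least 1.5-fold higher (22.8% of all). The median over mitosis genes was -0.64 for HL60 minus KG1a on the log2(RPKM + 1) scale, and 4 of the 19 were higher in HL60 by any margin. S phase genes had a median of 0.22, with 6 at least 1.5-fold higher in HL60 (MCM7, CDT1, CDC45, PRIM1, TYMS and E2F1) and 4 at least 1.5-fold lower (MCM4, MCM10, GINS2 and CCNE2). These are 26.1% and 17.4% of the 23, beside 22.8% and 27.8% of all measured genes. The median over all measured genes was -0.02. Over a further list of 15 reference genes it was 0.23, close to that of S phase genes, so the S phase value was not particular to them. When each library was rescaled by its sum of RPKM, the S phase median became -0.039 while that of all genes became -0.23.

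Fewer members differed between the MLL-AF9 lines themselves. For THP-1 minus MonoMac-1, 4 mitosis genes (CDC20, TTK, CENPF and MKI67) and 1 S phase gene (CCNE2) were at least 1.5-fold higher in THP-1, beside 16.2% of all measured genes. PCNA was the 1 member at least 1.5-fold lower in THP-1, beside 20.5% of all measured genes. The medians were 0.08 for S phase and 0.19 for mitosis genes, and -0.04 over all measured genes. Across the members, as a description, levels in THP-1 and MonoMac-1 had a Pearson correlation of 0.94 over the 23 S phase genes and 0.85 over the 19 mitosis genes on the log2 scale. For HL60 and KG1a these were 0.81 and 0.84. Over all measured genes the correlation was 0.89 for THP-1 and MonoMac-1 and 0.80 for HL60 and KG1a. Between the pairs, S phase correlations ran from 0.86 (THP-1 and HL60) to 0.93 (MonoMac-1 and HL60). Mitosis correlations between the pairs ran from 0.76 (MonoMac-1 and KG1a) to 0.79 (THP-1 and HL60). Genes of 1 library share its depth and scaling and are not independent.

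Other genes of the same pathways were counted from further lists. Of 48 further replication genes, 14 had both MLL-AF9 values under both others and 4 had them above (19.6% and 22.1% of all measured genes), with a median difference of -0.20. KG1a held the highest value of 20 and HL60 of 11 (31.0% and 23.1% of all measured genes). LIG1, the ligase that joins Okazaki fragments, stood at 34.6 (THP-1) and 32.8 RPKM (MonoMac-1), against 48.2 (HL60) and 86.4 RPKM (KG1a). RPA2, a subunit of the single-strand binding protein, stood at 28.9 (THP-1) and 41.2 RPKM (MonoMac-1), against 75.8 (HL60) and 58.2 RPKM (KG1a). RPA3, another subunit of that protein, ran the other way and was among the 4 with both MLL-AF9 values above both others. RPA3 stood at 19.3 (THP-1) and 20.04 RPKM (MonoMac-1), against 15.4 (HL60) and 9.14 RPKM (KG1a). GMNN, the inhibitor of CDT1, was low in THP-1, at 13.3 (THP-1) and 47.0 RPKM (MonoMac-1), against 45.9 (HL60) and 60.1 RPKM (KG1a).

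Of 59 further mitosis genes, KG1a held the highest value of 30 (31.0% of all measured genes) and HL60 the lowest of 24 (26.2%). MonoMac-1 held the lowest value of 15 of these 59 (25.4%), a smaller share than among the mitosis members. It held the lowest of 19 of the 48 replication genes (39.6%), beside 19.4% of all measured genes. In HL60, 27 of the 59 mitosis genes were at least 1.5-fold lower than in KG1a (27.8% of all) and 3 were at least 1.5-fold higher (22.8%), with a median of -0.55. Between the pairs, 9 lay lower and 3 higher throughout the MLL-AF9 pair (19.6% and 22.1% of all), with a median of -0.03. HMMR, a spindle protein, was among the 3, at 35.1 (THP-1) and 34.0 RPKM (MonoMac-1), against 22.3 (HL60) and 13.2 RPKM (KG1a). CDC25C, the phosphatase that activates the mitotic kinase, was another, at 8.77 (THP-1) and 6.42 RPKM (MonoMac-1), against 2.51 (HL60) and 5.03 RPKM (KG1a). CDCA5, which encodes sororin, a protector of sister chromatid cohesion, was lower, at 31.0 (THP-1) and 40.4 RPKM (MonoMac-1), against 50.5 (HL60) and 96.6 RPKM (KG1a).

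Of 13 genes of the anaphase-promoting complex, which CDC20 activates, 3 were highest in THP-1 (21.0% of all measured genes), and in the MLL-AF9 pair 4 lay above both other lines (22.1% of all measured genes) and 1 below them (19.6%). CDC23 stood at 22.4 (THP-1) and 22.3 RPKM (MonoMac-1), against 12.7 (HL60) and 11.8 RPKM (KG1a), and ANAPC11 at 36.1 (THP-1) and 49.2 RPKM (MonoMac-1), against 19.2 (HL60) and 19.6 RPKM (KG1a). Among 19 regulators of the E2F, RB and MuvB families, 6 (31.6%) lay lower in the MLL-AF9 pair and 0 higher, beside 19.6% and 22.1% of all measured genes. TFDP2, a partner of E2F factors, stood at 2.43 (THP-1) and 3.38 RPKM (MonoMac-1), against 13.5 (HL60) and 14.3 RPKM (KG1a). FOXM1, a factor of mitosis genes, stood at 24.6 (THP-1) and 36.1 RPKM (MonoMac-1), against 36.6 (HL60) and 62.3 RPKM (KG1a). E2F7, a repressor of E2F targets, stood at 7.35 (THP-1) and 2.29 RPKM (MonoMac-1), against 0.0972 (HL60) and 2.92 RPKM (KG1a).

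The line pattern was also counted by promoter word, without a test. Of the 16 S phase members with an E2F core and no CHR, 10 were highest in HL60, whereas 25.5% of 1716 other measured genes with such a promoter were, beside 23.9% of all 8890 others with a listed promoter. Of the 10 mitosis members with a CHR within 100 bases of the start, 6 were highest in KG1a, against 35.0% of 635 other measured genes with such a promoter and 30.9% of all others. Without regard to the word, 12 of all 20 S phase members with a listed promoter (60%) were highest in HL60. Of all 15 mitosis members with a listed promoter, 9 (60%) were highest in KG1a. Within the groups these shares were close to those with the word. The 2 S phase members with a CHR in that window were also highest in HL60.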

How the data were processed

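Total RNA (TRIzol) was sequenced on an Illumina instrument, per the labels' protocols. CASAVA 1.8.2 and hg19 are named in the submitters' processing notes; how reads were aligned, annotated and assigned to strands is not given in the sources used here. For every gene the authors deposited 2 values without a header: RPKM, and a whole-number coverage signal, read from its values as the sum of sequenced bases on the gene. The gene length behind each RPKM was recovered from both. Values were analysed as log2(RPKM + 1), which understates changes of low genes. Of 28 repeated symbols the entry with the highest mean was kept, which left 21865 symbols. Neither value counts reads, so no count model was run. The pairs of lines were compared with limma 3.58.1 (R 4.3.3; trend, two-sided, Benjamini-Hochberg over 12976 genes), tested on simulated data, and all else is described by counts and medians beside all measured genes. Since each line had 1 library, p-values measure the spread between lines, not cultures. The 42 members and all lists were chosen with earlier results of these data known. Genes named with values were the 42 members and, in the other lists, some of the 3 genes with the largest difference between pair means in each direction, picked with their values in view. Alternatives covered scaling, pseudocount, filter, the KG1a share in HL60 and leaving out each line; a trend with length was added after the data were seen. Sequences are from RefSeq (GRCh38.p14), and coordinates of genes are those of the deposited tables (hg19).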

Additional observations from a re-analysis of the deposited data

How the results depend on the processing

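Of 372 values recomputed under the alternatives, 337 kept their direction and stayed within the spread between lines of a pair, within 1.5 times a count, or on the same side of the threshold. Some could not have moved, since a filter leaves the members' differences and counts as they are and the KG1a share changes HL60 alone. The spread allowed for medians, 0.37 for S phase and 0.28 for mitosis genes, was larger in size than the pair medians of -0.33 and -0.05. The 337 therefore do not measure how robust the results are. They include the S phase counts highest in HL60 and in KG1a under library-sum scaling, whose order turned. The cause of the values outside these limits was not tested. With RPKM rescaled by its library sum, which moved the median of all genes by 0.14 in KG1a and -0.10 in HL60 (log2), the S phase median of HL60 minus KG1a turned to -0.039 and mitosis genes highest in HL60 numbered 1. Under that scaling 10 S phase genes were highest in HL60 and 12 in KG1a, so the order of these lines turned; with the length trend taken off they numbered 14 and 7, and mitosis genes highest in KG1a numbered 13 under the scaling and 12 without the trend. Taking the length trend off left MKI67 at -1.45 and KIF11 at -1.17 between the pairs. Removing the 2.67% KG1a share from HL60 moved no result past these limits. Only genes of at least 5 RPKM in a line gave 11 limma calls over all genes and 0 among members, and leaving out a line gave 0 calls.

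Percentiles depend on which genes are ranked: with genes of at least 5 RPKM the S phase median was 81.3 (THP-1), 76.96 (MonoMac-1) and 81.4 (KG1a), and the mitosis median 74.0 (MonoMac-1) and 78.6 (HL60). Without a filter the S phase median was 91.4 (THP-1), 89.5 (MonoMac-1) and 91.5 (KG1a), and the mitosis median 91.9 (THP-1), 88.1 (MonoMac-1), 90.2 (HL60) and 93.5 (KG1a). Leaving out each line, S phase genes without overlap between the pairs numbered 12 to 16 lower and 1 to 4 higher, and mitosis genes 6 to 12 lower and 1 to 5 higher, in part because fewer lines must agree. The mitosis median ran from -0.40 to 0.10. CCNE2 ran from -0.57 (without HL60) and -0.04 (without THP-1) to 1.75, CDC20 from -0.13 (without THP-1) to 1.95, MCM7 from -0.66 (without KG1a) to 1.06, RFC4 from -0.044 (without KG1a) and -0.025 (without MonoMac-1) to 0.36, and TTK from -0.018 (without HL60) to 0.62. With TTTGAA alone as the CHR, 66.7% of mitosis and 0% of S phase promoters matched. No paired analysis was possible because each line had 1 library and no number links the lines.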
